A study of Mus musculus with 7 samples.

Results

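The genes examined here encode proteins that bring fatty acids into liver cells and bind them there: Cd36, Lpl, Vldlr, the binding proteins Fabp1, Fabp2, Fabp4 and Fabp5, and the transport proteins Slc27a1, Slc27a2 and Slc27a4. They were chosen by name, and every probe set annotated with exactly 1 of these gene symbols was read. This gave 11 of the 27541 probe sets on the array and 10 of 19933 genes, with Fabp5 as the 1 gene that had more than 1 probe set. The data are from 7 arrays of the Affymetrix Mouse Gene 1.0ST type, 1 for the liver RNA of each male C57BL/6 mouse aged 4 months. The 3 mice of the knockout group had been given AAV-Cre, an adeno-associated virus that delivers Cre recombinase, and are labelled HDAC3 knockout. The 4 mice of the rescued group had been given AAV-Cre together with AAV-Flag-HDAC3, which delivers a tagged wild-type HDAC3, and are labelled HDAC3 rescued wild-type. All mice were on normal chow with free access to food, and livers were frozen 2 weeks after injection, at 5 pm (ZT10, 10 h after lights on). Both groups carry the Cre virus, and the rescued mice carry an additional vector. The allele that Cre acts on, the promoters of the vectors and the cells they reach are not given in the sources used here. Uninjected liver was not analysed here. The labels call the arrays biological replicates.

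Long-chain fatty acids reach the liver bound to albumin or inside lipoproteins. Lipoprotein lipase, encoded by Lpl, releases fatty acids from circulating triglyceride, and the VLDL receptor, encoded by Vldlr, takes up triglyceride-rich particles. The scavenger receptor CD36 and the fatty acid transport proteins of the Slc27 family promote uptake across the cell membrane, and the Slc27 proteins also join fatty acids to coenzyme A. Inside the cell, the small fatty acid binding proteins carry the acids between membranes and enzymes, with FABP1 as the form of hepatocytes. Many genes of this group are known targets of the PPAR nuclear receptors, and HDAC3 is a histone deacetylase of the NCoR and SMRT corepressor complexes through which nuclear receptors repress transcription.

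Of the 10 genes, 3 were higher in the knockout livers at an adjusted p under 0.05 and none was lower. The called genes were the scavenger receptor Cd36 (1.80-fold higher), the transport protein Slc27a1 (1.49-fold) and the lipoprotein receptor Vldlr (1.19-fold). The difference of Cd36 and of Slc27a1 held under every scaling of the arrays tried, and that of Vldlr held only for the values as deposited. Tests were limma's moderated test over all genes with Benjamini-Hochberg adjustment. The background over all 19933 genes was 14.4%, of which 9.54% were calls of higher and 4.85% calls of lower genes. Before adjustment 5 members had p under 0.05, all higher, beside 35.7% of all genes, 25.8% higher and 9.86% lower. The median difference of the 10 genes, knockout minus rescued, was 0.14 on the log2 scale, beside 0.09 over all genes. With the arrays rescaled it was 0.03 to 0.05, beside 0.00 to 0.01 over all genes. Knockout and rescued arrays were fully separate for 3 of the 10 genes, beside 29.6% of all genes. Whether the gene group differs from the rest of the array was not tested.

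**Figure D1:**
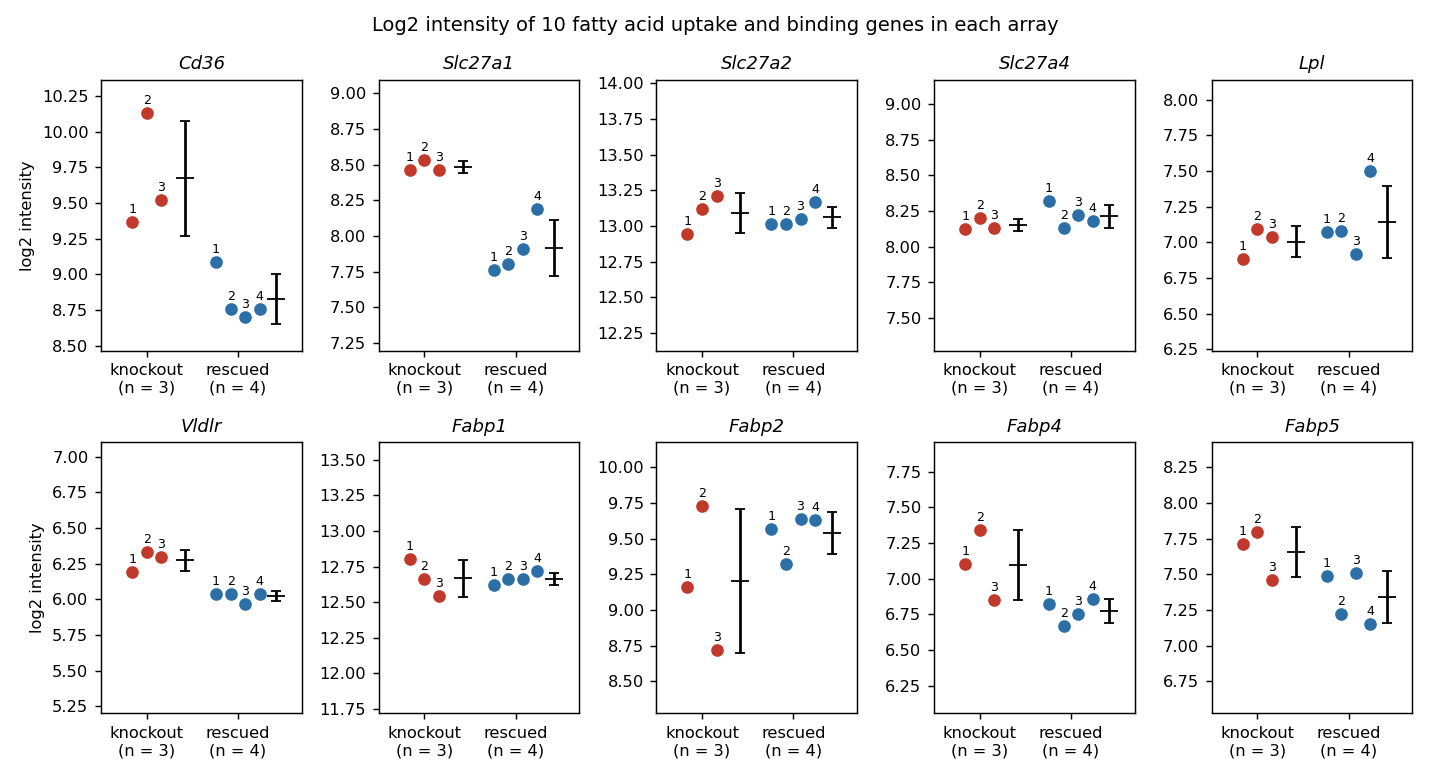
Log2 intensity of each of the 10 genes in each array, with knockout arrays in red and rescued arrays in blue and the replicate number above each point. The bars give the mean and SD of a group (n = 3 and n = 4), and all panels span the same number of log2 units. Knockout and rescued points do not overlap for Cd36, Slc27a1 and Vldlr.

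The Hdac3 transcript itself was lower in knockout livers, at 8.93, 8.75 and 9.07 against 9.23, 9.45, 9.55 and 9.38 (difference -0.48, SE 0.10, adjusted p = 0.0124 in limma's test). The probe set could also read the vector's transcript, so it checks the labels only in part. The median log2 intensity over all genes was 6.88 to 6.96 in the knockout arrays and 6.78 to 6.86 in the rescued arrays, and these ranges do not overlap. Scaling the arrays removes this offset and changes the balance of calls. Of the called genes 66.3% were higher as deposited, against 45.9% with quantile normalization, 27.2% with median centring and 45.0% with cyclic loess. Genes called higher then made up 4.51%, 3.37% and 4.38% of all genes, beside 2 of the 10 members in each scaling. A gene's level was set beside those of 1194 olfactory and vomeronasal receptor genes, which liver is not known to express. Vldlr, at percentile 94.4 of them, was the 1 member whose mean lay below their 95th percentile of 6.21.

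Cd36 had the largest difference of the 10 genes. CD36 binds long-chain fatty acids and oxidised lipoproteins at the cell surface, and its expression in normal liver is low compared with fat, muscle and macrophages. Its log2 intensity was 9.37, 10.13 and 9.52 in the knockout arrays, a mean of 9.67 ± 0.41 (SD, n = 3). In the rescued arrays it was 9.09, 8.76, 8.70 and 8.76, a mean of 8.83 ± 0.18 (SD, n = 4). Every knockout value lay above every rescued value, with knockout replicate 2 highest and rescued replicate 1 standing apart from its group. The difference was 0.85 (SE 0.16, 95% interval 0.49 to 1.20), and limma's test gave an adjusted p of 0.0103. It ranged from 0.76 to 0.87 over the 4 scalings and from 0.62 (without knockout replicate 2) to 1.00 when single arrays were dropped, and passed the threshold in all of these fits.

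The transport proteins of the Slc27 family did not move together. Slc27a1 encodes FATP1, known mainly from muscle and fat. Its values were 8.46, 8.53 and 8.46 in knockout arrays (mean 8.49 ± 0.04, SD, n = 3) and 7.76, 7.80, 7.91 and 8.19 in rescued arrays (mean 7.91 ± 0.19, SD, n = 4). The knockout arrays were close together and all above the rescued arrays, of which replicate 4 was highest. The difference was 0.57 (SE 0.10, 95% interval 0.36 to 0.79, adjusted p = 0.00653 in limma's test), from 0.48 to 0.61 over the scalings. Without rescued replicate 4 it was 0.66, and it passed with any array left out.

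Slc27a2 encodes FATP2, a transporter and very-long-chain acyl-CoA synthetase of liver and kidney. It read 12.94, 13.12 and 13.21 in knockout arrays and 13.01, 13.01, 13.05 and 13.17 in rescued arrays. The groups overlapped, and the difference of 0.03 had a 95% interval of -0.14 to 0.21 (adjusted p = 0.774 in limma's test). Slc27a4 encodes FATP4, the form known from intestine and skin. It read 8.12, 8.20 and 8.13 against 8.32, 8.13, 8.22 and 8.18, again with overlap, and the interval of its difference was -0.22 to 0.09 (adjusted p = 0.508). For both genes the intervals leave out a rise as large as the one measured for Slc27a1.

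On the lipoprotein side, the 2 genes gave different readings. Lpl, whose product is abundant in fat and muscle and low in adult liver, read 6.88, 7.09 and 7.04 in knockout arrays and 7.07, 7.08, 6.92 and 7.50 in rescued arrays. Rescued replicate 4 was the highest of the 7 arrays and the other values overlapped. The difference was -0.14 (95% interval -0.41 to 0.13, adjusted p = 0.428 in limma's test), and -0.02 without rescued replicate 4. Vldlr read 6.19, 6.33 and 6.30 against 6.04, 6.04, 5.97 and 6.04. All knockout values were higher, although by little, and the rescued values spread over less than 0.1 log2 units.

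The difference of Vldlr was 0.25 (SE 0.07, 95% interval 0.11 to 0.40, adjusted p = 0.0325 in limma's test). It fell to 0.11 after quantile normalization (adjusted p = 0.355), 0.16 after median centring (0.145) and 0.10 after cyclic loess (0.381), so the call was lost each time. The call was also lost without knockout replicate 2 (0.0735) or 3 (0.0587) and without rescued replicate 2 (0.0722), 3 (0.0895) or 4 (0.0675). Since its level was not clearly above that of the receptor genes, the size of the fold is uncertain.

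**Figure D2:**
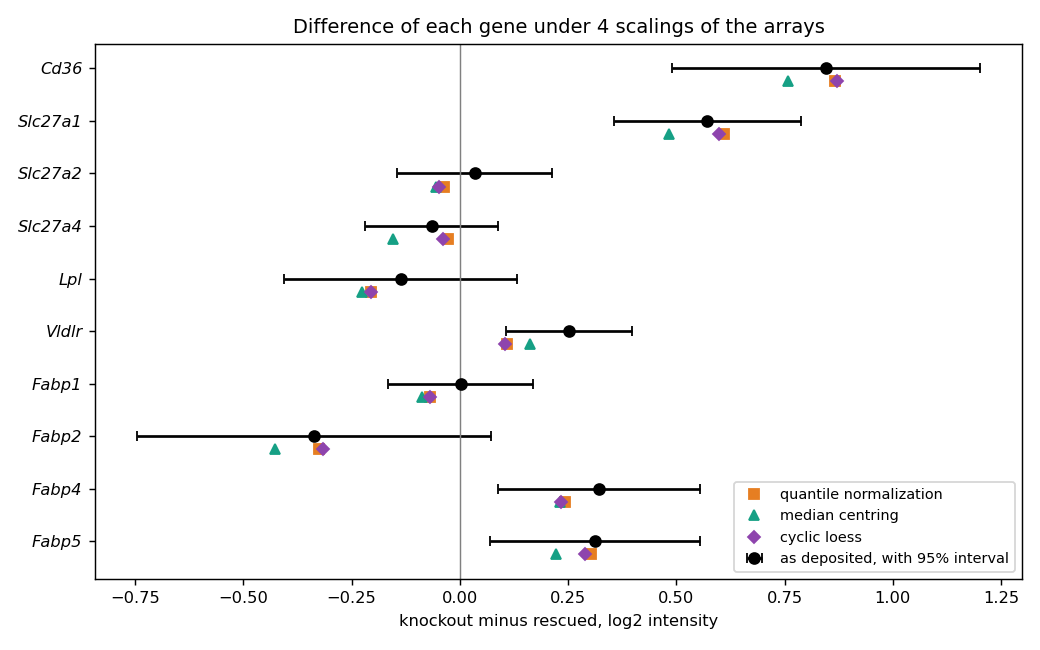
Difference of each gene, knockout minus rescued, in log2 intensity. Black points with bars give the deposited values with their 95% interval, and coloured points give 3 rescalings of the arrays. Cd36 and Slc27a1 stay above 0.4 in every scaling, while Vldlr moves from 0.25 to between 0.10 and 0.16.

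None of the 4 fatty acid binding protein genes passed the threshold. Fabp1, which encodes the abundant binding protein of hepatocytes, read 12.80, 12.66 and 12.54 in knockout arrays and 12.62, 12.66, 12.66 and 12.72 in rescued arrays. Its means were 12.67 and 12.66, and the interval of the difference was -0.16 to 0.17 (adjusted p = 0.984 in limma's test). Fabp2, the intestinal form that is also transcribed in liver, varied most between knockout livers, at 9.16, 9.73 and 8.72. The rescued livers read 9.57, 9.32, 9.64 and 9.63. With knockout replicate 2 above all rescued arrays and the other two below them, the difference was -0.34 (SE 0.19, adjusted p = 0.209). Without knockout replicate 2 it was -0.60 and passed (adjusted p = 0.035), and without knockout replicate 3 it was -0.09 (adjusted p = 0.678).

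Fabp4 and Fabp5 encode the forms known from adipocytes, macrophages, endothelium and skin. Fabp4 read 7.10, 7.34 and 6.85 in knockout arrays and 6.82, 6.67, 6.75 and 6.86 in rescued arrays, with only the lowest knockout and the highest rescued value out of order. Its difference was 0.32 (95% interval 0.09 to 0.56), with adjusted p = 0.0622 in limma's test, or 0.0206 without knockout replicate 3. Fabp5 read 7.71, 7.80 and 7.46 against 7.49, 7.22, 7.51 and 7.15, and its difference of 0.31 had adjusted p = 0.0749, or 0.048 without knockout replicate 3. At the other Fabp5 probe set the difference was 0.17 with a 95% interval of -0.09 to 0.43. Mouse Fabp5 has processed pseudogene copies, and its probe sets can cross-hybridise with them. In a bulk liver sample, more cells of a type and more RNA per cell cannot be told apart.

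A scale factor common to all genes of an array cancels in a ratio within that array, while an offset that differs between genes does not. Family members were therefore also compared by their log2 ratio, in 9 pairs chosen after seeing the data. With 3 arrays against 4 there are 35 splits, and the smallest two-sided exact permutation p is 0.0571, so no pair could pass 0.05. The share of all gene pairs that separate the groups was not computed, so the separations below have no background. Slc27a1 relative to Slc27a4 was 0.34 ± 0.01 in knockout (SD, n = 3) and -0.30 ± 0.23 in rescued livers (SD, n = 4), a shift of 0.64 (exact p = 0.0571, adjusted p = 0.0857), which was the same to 2 decimals in the 4 scalings. Relative to Slc27a2 the shift of Slc27a1 was 0.54 (exact p = 0.0571, adjusted p = 0.0857), and 0.65 after quantile normalization or cyclic loess. In contrast, the ratio of Slc27a2 to Slc27a4 overlapped between groups with a shift of 0.10 (exact p = 0.343, adjusted p = 0.386), or -0.01 after those rescalings.

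Among the binding proteins, Fabp4 and Fabp5 were higher relative to Fabp1 and to Fabp2 in every knockout array than in any rescued array. For Fabp5 this holds for its brighter probe set, the only one used in the ratios. At its other probe set the groups overlapped, with 6.81, 6.83 and 6.59 in knockout and 6.86, 6.46, 6.59 and 6.38 in rescued arrays. With the values of that probe set, the ratios of Fabp1 and of Fabp2 to Fabp5 overlapped between the groups as well. The separation of the Fabp5 ratios therefore held at the brighter probe set only. The ratio of Fabp2 to Fabp4 was 2.10 ± 0.26 in knockout and 2.76 ± 0.10 in rescued livers, a shift of -0.66 (-0.55 after cyclic loess), and that of Fabp2 to Fabp5 shifted by -0.65 (-0.60). Fabp1 shifted by -0.32 relative to Fabp4 and by -0.31 relative to Fabp5 (-0.30 and -0.36 after cyclic loess). The exact p of each of these 4 pairs was 0.0571 (adjusted p = 0.0857). The ratio of Fabp4 to Fabp5 differed by less than its spread, at -0.56 ± 0.09 and -0.57 ± 0.20 (exact p = 1.0). The ratio of Fabp1 to Fabp2 overlapped between the groups, with a shift of 0.34 (exact p = 0.286, adjusted p = 0.367).

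The knockout livers differed among themselves. In knockout replicate 2, 9 of the 10 genes lay above the mean of the knockout group, all but Fabp1, while in each of the other knockout arrays 3 did. The same count over all genes was not made. A gene's deviations cancel over the arrays of a group, so the counts of these arrays depend on each other. The deviations of replicate 2 were 0.53 for Fabp2, 0.46 for Cd36, 0.25 for Fabp4 and 0.14 for Fabp5. Replicate 3 was the lowest knockout array for these 3 binding proteins, with Fabp2 at -0.48. In the rescued group, 7 of the 10 genes lay above the group mean in replicate 4, with Lpl at 0.36 and Slc27a1 at 0.27, and 1 in replicate 2.

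**Figure D3:**
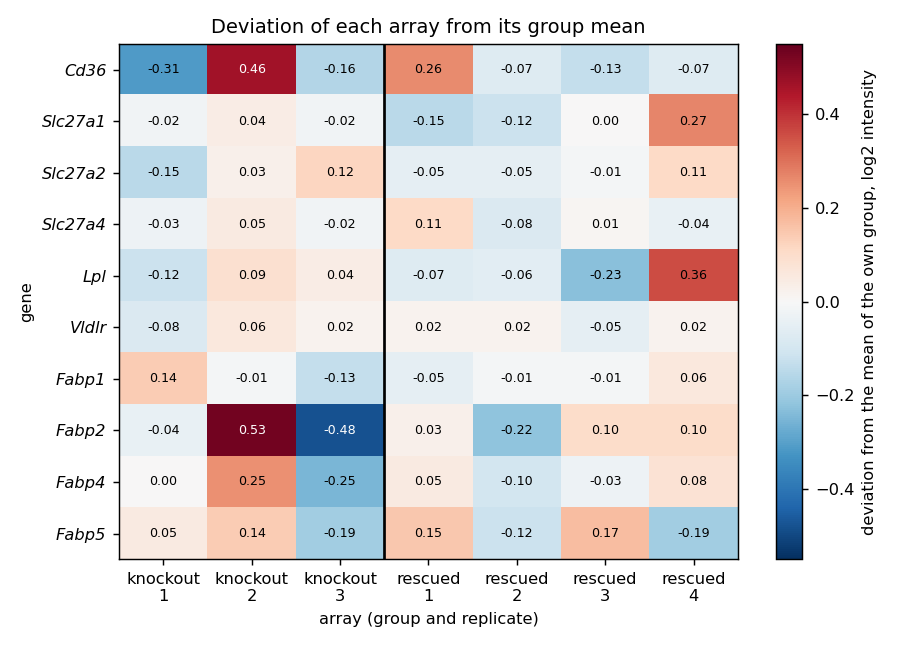
Deviation of each array from the mean of its own group for the 10 genes, in log2 intensity, with knockout arrays left of the black line and rescued arrays right of it. Knockout replicate 2 is highest for Fabp2 (0.53) and Cd36 (0.46), and knockout replicate 3 lowest for Fabp2 (-0.48).

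Upstream sequences were compared because the PPAR with its partner RXR binds a pair of AGGTCA half-sites in tandem with 1 base between them. RefSeq promoter windows (GRCm38.p6, 250 bases before to 50 after the start) were found for 7 of the 10 genes, in 10 entries. Entries were not found for Lpl, Fabp4 and Fabp5. Each window was searched on both strands for AGGTCA and for 2 AGGNCA half-sites in tandem with 1 or with 4 bases between them, where N is any base and the tandem matches can overlap an AGGTCA match. The 250 bases before the start are shown for the 3 genes with a match, with matches in capitals: Cd36, whose transcript was higher, and Fabp1 and Slc27a2, which did not pass. A match is on the reverse strand where it reads TGACCT.
Cd36 (chr5:17835897-17836146, minus strand): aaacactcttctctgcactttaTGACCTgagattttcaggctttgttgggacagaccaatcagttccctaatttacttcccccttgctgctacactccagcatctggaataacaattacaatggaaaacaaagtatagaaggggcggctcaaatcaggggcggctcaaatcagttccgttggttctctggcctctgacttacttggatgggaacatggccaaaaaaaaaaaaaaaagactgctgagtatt
Fabp1 (chr6:71199629-71199878, plus strand): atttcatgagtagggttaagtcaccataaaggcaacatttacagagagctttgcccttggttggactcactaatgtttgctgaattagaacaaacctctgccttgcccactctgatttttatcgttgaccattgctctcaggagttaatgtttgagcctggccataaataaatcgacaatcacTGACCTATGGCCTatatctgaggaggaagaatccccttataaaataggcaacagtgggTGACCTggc
Slc27a2 (chr2:126552774-126553023, plus strand): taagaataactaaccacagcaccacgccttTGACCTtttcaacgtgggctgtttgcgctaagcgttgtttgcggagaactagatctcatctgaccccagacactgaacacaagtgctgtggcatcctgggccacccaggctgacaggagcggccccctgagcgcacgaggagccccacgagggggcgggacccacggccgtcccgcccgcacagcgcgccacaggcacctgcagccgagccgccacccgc
Of all 32851 windows 16.3% hold AGGTCA, 0.381% the tandem with 1 base between and 0.253% that with 4. The Cd36 window on chromosome 5 holds 1 half-site, at positions -228 to -223 from the start, and no tandem. Fabp1, on chromosome 6, was the 1 member with a tandem, at -67 to -55, and it also has a half-site at -9 to -4. Slc27a2, on chromosome 2, has a half-site at -220 to -215. The 3 windows of Slc27a1, the 2 of Vldlr and those of Fabp2 and Slc27a4 hold none of these letters. These matches describe the windows and are not shown to be binding sites.

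3 further groups of genes place these members in their pathway. The first held other carriers and the enzymes that activate fatty acids, with 16 of 18 listed genes measured. Of these 2 were called lower and none higher, beside 4.85% and 9.54% of all genes. Their median difference was 0.09. Before adjustment limma gave p under 0.05 for 3 higher and 3 lower genes, beside 25.8% and 9.86% of all genes. Acsl4, an acyl-CoA synthetase that prefers arachidonic acid, read 8.95, 9.02 and 9.04 in knockout livers and averaged 9.82 ± 0.13 in rescued livers (SD, n = 4), a difference of -0.82 (adjusted p = 0.000298 in limma's test). Acbd5, a peroxisomal acyl-CoA binding protein, differed by -0.34 (adjusted p = 0.0458), and its call was lost with any array left out except rescued replicate 1. Slc27a5, the Slc27 member of liver that also activates bile acids, differed by 0.04 (95% interval -0.11 to 0.19).

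Of 23 listed lipase regulators and lipoprotein receptors, 19 were measured. Of these 3 were called higher and 1 lower, beside 9.54% and 4.85% of all genes, and their median difference was 0.08. The heparan sulfate proteoglycan Sdc1, which takes up remnant lipoproteins in hepatocytes, read 10.56 ± 0.20 in knockout and 9.87 ± 0.09 in rescued livers (difference 0.69, adjusted p = 0.00213 in limma's test). Lipa, the lysosomal acid lipase that frees fatty acids from lipoproteins and droplets taken into the cell, differed by 0.63 (adjusted p = 0.00622). Lsr, a lipoprotein receptor of liver, differed by 0.40 (adjusted p = 0.0188), a call that did not hold without knockout replicate 1 or rescued replicate 4. The lower gene was the endothelial lipase Lipg, at -0.64 (adjusted p = 0.0365). Its call was lost without any 1 of the knockout arrays, without rescued replicate 3 or 4, and after quantile normalization or cyclic loess. Among the genes that act on lipoprotein lipase directly, which were singled out after their values were seen, the inhibitor Angptl4 differed by 0.03, the anchor Gpihbp1 by 0.12 and the maturation factor Lmf1 by -0.22 (adjusted p = 0.84, 0.307 and 0.0587).

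Nuclear receptors and cofactors with a known part in the control of these genes made up the third group. Of 28 listed, 25 were measured, with 4 called higher and 4 lower, beside 9.54% and 4.85% of all genes. Their median difference was -0.01. Hdac3 itself, the gene that was deleted and supplied by the vector, is on the list and is 1 of the 4 lower genes. Without knockout replicate 1 the lower count was 1, and without rescued replicate 3 it was 2. Tbl1xr1, a subunit of the corepressor complex, differed by 1.20 (adjusted p = 1.7e-05), and the growth hormone signal transducers Stat5b and Stat5a by 0.75 and 0.59 (adjusted p = 0.00122 and 0.00215 in limma's test). Nr1h3, the gene of the oxysterol receptor LXR alpha, differed by -0.59 (adjusted p = 0.00163). The 3 PPAR genes on the list, singled out after their values were seen, did not pass. Ppara differed by -0.04 (95% interval -0.20 to 0.11) and Pparg by 0.08 (-0.24 to 0.40). Ppard differed by 0.19 (0.03 to 0.34, adjusted p = 0.0857 in limma's test). Every knockout array lay above every rescued array for Ppard, while the groups were fully separate for 29.6% of all genes in either direction. Ppard passed after quantile normalization (adjusted p = 0.0491) but not after cyclic loess (0.0603) or median centring (0.399). It passed in none of the fits with an array left out.

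**Figure D4:**
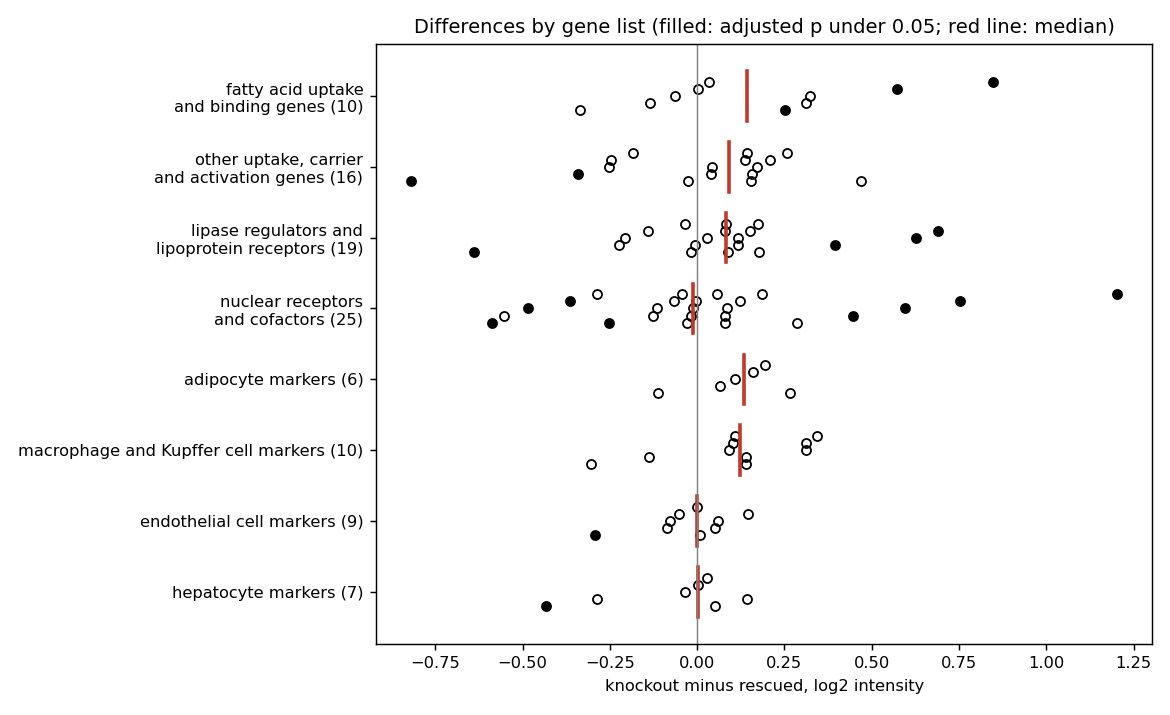
Differences, knockout minus rescued in log2 intensity, of the 10 genes, of 3 pathway groups and of 4 marker lists, with 1 point per gene and the number of genes in brackets. Filled points passed an adjusted p under 0.05, and the red line is the median of a list. The median of the 10 genes is 0.14 as deposited (0.03 to 0.05 with the arrays rescaled) and that of the hepatocyte markers 0.00.

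Several members are expressed by cell types other than hepatocytes, so markers of such cells were read on the same arrays. Hepatocyte markers were at high intensity, with Alb at 13.80 and 13.75. Of 7 such markers 1 was called lower, beside 4.85% of all genes. It was the asialoglycoprotein receptor gene Asgr1 (difference -0.43, called in 3 of 7 fits with an array left out). Before adjustment limma gave p under 0.05 for 2 of the 7, Asgr1 and Hnf4a (-0.29), both lower, beside 9.86% of all genes. None of 6 adipocyte markers was called. Adipoq, Lep and Cidea lay at percentiles 53.4, 68.7 and 69.5 of the receptor genes, and Plin1, Retn and Car3 at 98.3, 97.6 and 100. The summed intensity of the 6 markers ranged from 9389 to 10194 in knockout and from 9761 to 11180 in rescued arrays. Most of it came from Car3, which hepatocytes also express. None of 10 macrophage and Kupffer cell markers was called, with sums of 3662 to 4090 against 2826 to 4207. Their median difference was 0.12, beside 0.09 over all genes. Adgre1 (-0.30) and Cd5l (-0.14) had lower mean values in knockout arrays, and the other markers of this list had higher ones. The largest rises were those of Vsig4 (0.34), Lyz2 (0.31) and Cd68 (0.31), with limma p of 0.0733, 0.0617 and 0.0658 before adjustment. Before adjustment, limma gave p under 0.05 for 2 adipocyte markers, Adipoq and Retn, with higher values, and for 1 macrophage marker, Adgre1, with a lower value, beside 35.7% of all genes in either direction. Of 9 endothelial markers, 1 was called, Clec4g at -0.29, beside 4.85% of all genes called lower and 14.4% called in either direction. The call of Clec4g held in 1 of the 7 fits with an array left out. Endothelial sums were 5401 to 6387 against 6141 to 6258.

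Stellate cell markers held 1 higher gene of 7 (Lrat, 0.32) and skeletal muscle markers 1 of 5 (Acta1, 0.32), beside 9.54% of all genes. These calls held in 1 and 2 of the 7 fits with an array left out. Before adjustment limma gave p under 0.05 for 3 of the stellate and 4 of the muscle markers, all of higher value, beside 25.8% of all genes. The median differences were 0.17 and 0.24, beside 0.09 over all genes. Summed intensities of the stellate list were 4158 to 4648 against 4138 to 4598, and those of the muscle list were 619 to 705 against 513 to 585, without overlap. None of 4 cholangiocyte and none of 5 intestinal markers was called, with 2 and 1 of higher value at p under 0.05 before adjustment in limma. The cholangiocyte genes were Sox9 (0.31, adjusted p = 0.0565 in limma's test) and Epcam (0.165, adjusted p = 0.133). The intestinal gene was Vil1 (0.38, adjusted p = 0.0505). Sox9 passed in 2 of the 4 scalings and Vil1 in none, and each passed in 1 of the 7 fits with an array left out. The cholangiocyte sums, 513 to 584 against 444 to 492, did not overlap either, and the intestinal sums were 360 to 429 against 371 to 431. All sums are of the values as deposited, which hold the offset between the arrays described above, and rescaled sums were not made. How often the sums of other gene lists separate the groups was not computed. The part of these cell types in the differences of Cd36, Slc27a1 and Vldlr was not tested.

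Genes whose profile over the 7 arrays was most like that of a called member were found by Pearson's r among 12353 or 12354 genes above the receptor range. For Cd36 these were Dennd2d (0.997), Cfap65 (0.991) and Kcnd3os (0.989). For Slc27a1 they were Tmem62 (0.988), Zfhx2 (0.984) and Stard13 (0.982), and for Vldlr Hspa2 (0.990), Acss3 (0.988) and Rfxank (0.982). These are descriptions of 7 arrays in 2 groups, in which any pair of genes that differ between the groups correlates, and the arrays share the offset described above.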

How the data were processed

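The deposited table holds 1 linear intensity per probe set and array, for 7 liver arrays. Per the submitters' processing notes RMA and Partek were used by the authors, without versions. Column medians differ, so what scaling came last is not known. A genome build for the probes is not given in these sources. Names came from the platform annotation, with 1 symbol for 21631 probe sets, several for 1317 and none for 4593. Of several probe sets of a gene with 1 symbol, the brightest was used, and dim genes were kept.

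Log2 intensities of the groups were tested by lmFit and eBayes of limma 3.58.1 (R 4.3.3, two-sided, without covariates), with Benjamini-Hochberg adjustment over 19933 genes and a threshold of 0.05. The fit was tested on simulated data. Exact permutation tests used scipy 1.17.1, and figures matplotlib 3.10.9. The members and gene lists (3 of the pathway and 8 of cell type markers) were chosen with earlier results of these data known. Named genes are the members, Hdac3, and the called list genes with the largest differences, or those with the smallest p where none was called. Not all that this rule picks are printed. Some genes outside the rule are printed too, and these were picked with their values known. They are Slc27a5, the genes that act on lipoprotein lipase, the PPAR genes and some markers. These markers are Alb, Hnf4a, Plin1, Lep, Cidea, Car3, Cd5l, Vsig4 and Cd68. List genes without a probe set of their own were not analysed here. Alternatives were 3 scalings, 2 filters on dim genes, averaging a gene's probe sets, a robust spread with trend, a replicate block, single arrays left out, and thresholds of 0.01 and 0.1. The number of arrays limits the precision.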

Additional observations from a re-analysis of the deposited data

Results flagged for a closer look

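In the rescued group of 4 arrays, the highest or lowest value of 11 genes (the 10 members and Hdac3) was compared with its neighbour, and 2 lay apart by Dixon's criterion (its gap, as a share of the range, above the critical value for 4 samples). For Cd36 this was rescued replicate 1, at 9.09 beside 8.70 to 8.76, with a gap of 0.842 of the range. Without it the difference of Cd36 was 0.94 in place of 0.85. For Vldlr it was rescued replicate 3, at 5.97 beside 6.04 in each of the others, with a gap of 0.993 of the range. Without it the difference was 0.24, with adjusted p = 0.0895 in limma's test. Chance alone marks about 1 in 20 such groups.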

How the results depend on the processing

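Cd36 and Slc27a1 were called higher under all 3 rescalings, under both filters on dim genes, with the mean of probe sets, with trend and robust spread, with the replicate block and with each array left out, but at an adjusted p under 0.01 only Slc27a1 was. The number of members called higher was 3 as deposited, 2 in each rescaling and in all 4 scalings together (the latter counted after seeing the data), 2 to 4 with an array left out, 1 at a threshold of 0.01 and 5 at 0.1. The number called lower was 0 to 1 with an array left out, the 1 being Fabp2 without knockout replicate 2. The median difference of the members was 0.04 after quantile normalization, 0.05 after median centring, 0.03 after cyclic loess and 0.03 under either filter, both of which removed Vldlr. Hdac3 lost its call without knockout replicate 1 (-0.49) and in no other of these fits.

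No label says that the replicate numbers pair mice, and the deviations of equal numbers correlated at 0.15, 0.00 and 0.01 over all genes. With the replicate block, 2 members were higher and Vldlr was lost (0.26, adjusted p = 0.0709), and over all genes 1938 were called in place of 2867, 1233 of them higher in place of 1901. Over all genes, 509 were called at 0.01 and 5528 at 0.1, and 897 to 3263 with an array left out.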
